A study of Mus musculus with 42 samples.

Results

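The genes described here lie at the centromeric end of mouse chromosome 17, from the first annotated gene to the end of Pde10a (chr17:3044014-8986648, mm10), and are carried in 3 copies by Ts65Dn mice. They were chosen by position, as the genes of the count files that end at or before the end of Pde10a, and 75 of the 52636 gene lines are described. Another gene that meets this rule is not reported here. In the Ts65Dn mouse this stretch of chromosome 17 and the distal part of chromosome 16 sit together on a small extra chromosome that segregates on its own. The chromosome 16 part corresponds to genes of the human chromosome whose trisomy causes Down syndrome, whereas the human counterparts of the chromosome 17 part lie on another chromosome, so these genes are triplicated in the model and not in the human condition.

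The series held 42 samples from 3 genotypes. These were euploid mice, Ts65Dn mice, and Ts65Dn;Brwd1+/- mice, for which Ts65Dn mothers had been crossed with fathers heterozygous for the Brwd1 repro5 mutation to restore the copy number of Brwd1, a gene of the chromosome 16 part that codes for a bromodomain and WD-repeat protein. All groups shared a mixed DBA/2J x B6EiC3Sn/J background. RNA had been sequenced from forebrain neurons taken at embryonic day 16 and grown in culture, in 3 libraries for each genotype, which the labels describe as pooled male and female, and AraC had been added to the cultures to hold back dividing glia. Open chromatin had been mapped by ATAC-seq in sorted NeuN-positive nuclei from the hippocampus of adult males (3 libraries per genotype), and binding of the BAF remodelling subunits SMARCA2/4 by ChIP-seq in hippocampus of male mice aged 6 to 8 weeks (4 immunoprecipitated and 4 input libraries per genotype, each from 2 pooled animals by the labels), so the peaks come from another tissue and age than the RNA. Both chromatin assays were available as 1 peak list per genotype and therefore carry no replicate error. Nothing in the labels says whether the 3 cultures of a genotype came from separate litters, so the p-values below measure the spread between these libraries, which may be partly technical.

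Where RNA follows copy number, 3 copies against 2 give a ratio of 1.5 to euploid. Genes whose RNA stays nearer to the euploid level are called compensated in studies of aneuploidy, and genes above 1.5 are said to be in excess, but a ratio can also move away from 1.5 because the mixture of cell types differs or because the gene responds to the state of the cell. In bulk RNA, fewer cells of a type and less RNA per cell cannot be told apart. The genes of the interval are unrelated in function: they include regulators of transcription and RNA processing, mitochondrial proteins, kinases and phosphodiesterases, proteins of the membrane skeleton and of endocytosis, parts of cilia and dynein motors, and several recently duplicated families.

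The libraries were first checked against their labels. Brwd1 stood at 85.9 to 93.2 CPM (counts scaled to library size and composition) in euploid libraries, 125 to 129 in Ts65Dn libraries and 124 to 146 in those labelled Ts65Dn;Brwd1+/-, so its RNA was not lower in the latter than in Ts65Dn. Xist, the RNA of the inactive X chromosome, was at 0.526 to 1.12 CPM in the euploid and Ts65Dn libraries and at 1409 to 1982 in the libraries labelled Ts65Dn;Brwd1+/-, in which the Y-linked genes Ddx3y and Kdm5d were at 0 to 0.0892 CPM against 46.2 to 58.7 elsewhere. Those 3 libraries thus differ from the other 6 in sex-linked RNA although the labels describe all 9 alike. Contrasts of that group with euploid or with Ts65Dn therefore cannot separate genotype from sex. Total counts in genes ran from 17270070 to 25892802 per library, of which 21754 to 44272 fell on the genes of the interval. Ts65Dn replicate 3 stood apart from the other Ts65Dn libraries, with the lowest summed level of 12 glutamatergic markers (418 CPM against 865 and 988). These markers summed to 1424 to 1848 CPM in euploid libraries and 1347 to 1868 in Ts65Dn;Brwd1+/- libraries. Of the 12, 9 were lower and 0 higher in Ts65Dn than in euploid, where 21.1% and 25.6% of all genes tested were called in these directions. Their part in the ratios below was not tested.

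Of the 75 genes, 41 were protein-coding and 34 were pseudogenes or non-coding RNAs. In the cultures, 15 had no count in any library, 18 had counts but were too low to test (at most 18 in any library), and 42 passed the filter, 33 of them protein-coding. Among the coding genes left out were Nox3 (an NADPH oxidase of the inner ear), Ldhal6b (a lactate dehydrogenase of testis), Ccr6 (a chemokine receptor), Sytl3, Ttll2, Tcp10a, Unc93a2 and Gm1604a. Of the 42, 13 belonged to families of near-identical copies, in which a read that matches 2 copies equally is either dropped or assigned uncertainly. Counts, medians and ratios below refer to the 42 genes tested, never to all 75, and the range in parentheses after a ratio is its 95% interval.

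The start regions of 5 of these genes are given here because their chromatin or their RNA carries the comparisons that follow: Gtf2h5, Sft2d1 and Tfb1m have an ATAC peak in all 3 genotypes, Tmem242 is above 1.5 in both trisomic groups, and Pde10a is the largest gene of the interval and moves in opposite directions in the 2 trisomic groups. Each sequence covers 300 bases, 250 before and 50 after a RefSeq transcript start in GRCm38.p6, written 5′ to 3′ on the strand of the gene, with motif matches on either strand in capitals (GGGCGG of SP and KLF factors, here seen as its reverse complement CCGCCC in each sequence, CCGGAAG of ETS factors in Sft2d1, and the NRF1 motif, which is GCGCA followed by any base and by GCGC, in Gtf2h5).
Gtf2h5, chr17:6079578-6079877, plus strand: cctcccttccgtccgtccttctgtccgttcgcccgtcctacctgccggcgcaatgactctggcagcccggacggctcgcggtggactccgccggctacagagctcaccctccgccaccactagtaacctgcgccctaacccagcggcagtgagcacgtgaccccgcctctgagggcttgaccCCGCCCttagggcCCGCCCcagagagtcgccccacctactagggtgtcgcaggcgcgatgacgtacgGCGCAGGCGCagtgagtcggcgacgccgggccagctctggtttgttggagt
Sft2d1, chr17:8310853-8311152, plus strand: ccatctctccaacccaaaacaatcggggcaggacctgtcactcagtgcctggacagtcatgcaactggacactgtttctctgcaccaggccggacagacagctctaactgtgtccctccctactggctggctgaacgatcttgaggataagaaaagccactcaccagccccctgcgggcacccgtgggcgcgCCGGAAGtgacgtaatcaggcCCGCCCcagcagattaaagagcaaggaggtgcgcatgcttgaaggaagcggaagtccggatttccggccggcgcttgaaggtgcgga
Tfb1m, chr17:3557706-3558005, minus strand: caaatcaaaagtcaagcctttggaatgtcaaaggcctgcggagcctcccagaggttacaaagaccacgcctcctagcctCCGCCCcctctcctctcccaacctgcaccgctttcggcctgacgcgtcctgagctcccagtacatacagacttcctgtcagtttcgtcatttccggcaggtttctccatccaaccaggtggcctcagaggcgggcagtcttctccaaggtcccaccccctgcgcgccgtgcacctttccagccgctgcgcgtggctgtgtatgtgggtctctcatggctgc
Tmem242, chr17:5440211-5440510, minus strand: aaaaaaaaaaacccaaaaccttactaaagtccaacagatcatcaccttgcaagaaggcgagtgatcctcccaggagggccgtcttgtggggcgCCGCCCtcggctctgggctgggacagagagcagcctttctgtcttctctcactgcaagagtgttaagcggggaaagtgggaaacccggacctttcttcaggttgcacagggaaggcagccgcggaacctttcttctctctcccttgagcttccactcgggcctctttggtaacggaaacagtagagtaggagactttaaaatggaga
Pde10a, chr17:8801495-8801794, plus strand: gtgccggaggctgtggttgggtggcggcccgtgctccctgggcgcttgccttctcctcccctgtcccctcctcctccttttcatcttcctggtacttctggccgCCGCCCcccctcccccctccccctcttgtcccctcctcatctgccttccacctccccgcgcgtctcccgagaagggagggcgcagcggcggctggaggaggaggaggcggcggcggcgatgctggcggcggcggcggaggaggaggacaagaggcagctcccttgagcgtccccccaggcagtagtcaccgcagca

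RefSeq start regions were found for 38 of the 75 genes, on the same strand and with a start in the gene or within 1 kb of it. The median number of CG pairs in them was 15.5, against 7 over all 27025 start regions of that length. GGGCGG occurred in 20 of the 38 (35.9% of all start regions), CCAAT in 16 (37.9%), CCGGAAG in 7 (9.12%), the NRF1 motif in 3 (4.78%), TATAAA in 3 (14.2%) and AAGATGGC of YY1 in 1 (2.88%), counted on both strands. Genes placed head to head share such a region: the starts of Serac1 and Gtf2h5 lie 45 bases apart and both have the NRF1 match, and the starts of Sft2d1 and the non-coding 4930506C21Rik lie 22 bases apart. A match says only that these letters are present.

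Most of the genes tested were higher in Ts65Dn than in euploid cultures. In Ts65Dn, 26 of the 42 were higher and 3 were lower, where 25.6% and 21.1% of all 17173 genes tested were called in these directions (edgeR quasi-likelihood test, adjusted p under 0.05). The 26 and the non-overlap count below include T, the 1 gene of the 42 that passed the filter on low counts through a single group, Ts65Dn. The median ratio of the 42 was 1.56, with the middle of the distribution from 1.15 to 2.07 and extremes of 0.534 and 3.11. Without Ts65Dn replicate 3, 28 of 43 tested genes were higher and 2 lower, and with the libraries labelled Ts65Dn;Brwd1+/- left out of the fit, 25 were higher and 2 lower. The count of lower genes was 0 without euploid replicate 1 or 2, 1 without Ts65Dn replicate 2 and 5 without Ts65Dn replicate 1. For 30 genes the lowest Ts65Dn library exceeded the highest euploid one, against 31.2% of all genes, and for 3 the reverse held (25.5% of all genes). In the libraries labelled Ts65Dn;Brwd1+/-, 23 of the 42 were higher than euploid (14% of all genes) and 0 were lower (15.2%), with 1 lower at an unadjusted p under 0.05 and 0 by DESeq2. The median ratio there was 1.46, from 1.21 to 1.66 in the middle of the distribution and 0.628 to 2.34 at the ends.

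**Figure D1:**
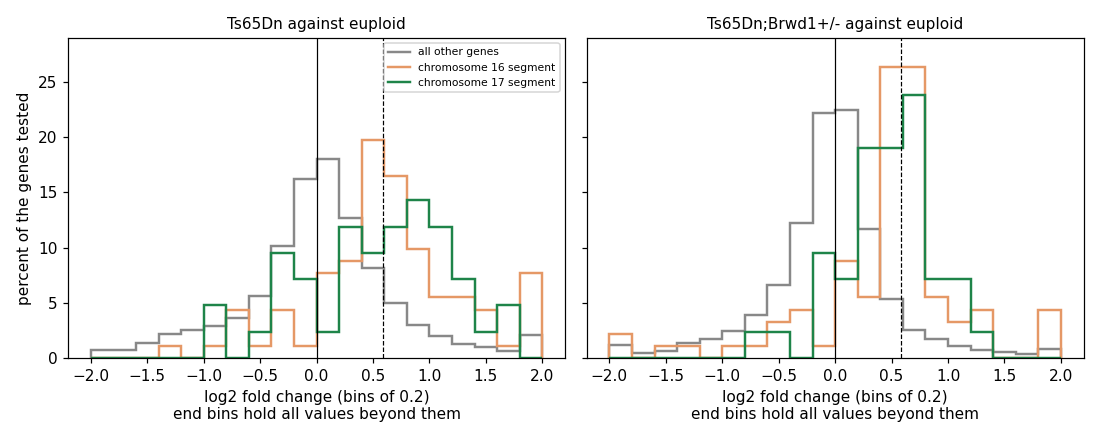
Share of tested genes (percent, vertical axis) in each bin of log2 fold change against euploid (horizontal axis) for the 42 genes of the chromosome 17 segment (green), the 91 of the chromosome 16 segment (orange) and all other genes (grey); the dashed line marks a ratio of 1.5 and the solid line no change. The green outline is centred near the dashed line in both panels (median ratios 1.56 and 1.46) and is broader in Ts65Dn. The middle of the distribution was also broader in Ts65Dn for the chromosome 16 segment (1.23 to 1.98 against 1.18 to 1.67) and for all other genes (0.821 to 1.29 against 0.826 to 1.15).

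The 91 tested genes of the chromosome 16 segment on the same extra chromosome had median ratios of 1.54 in Ts65Dn and 1.48 in Ts65Dn;Brwd1+/-, with 65 and 58 of them higher. The medians over all other genes were 1.03 and 0.984. Both trisomic groups were compared with the same 3 euploid libraries, so their values are given side by side and no agreement between them is read as a result.

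Against a ratio of 1.5 itself, 13 of the 42 genes were below and 8 above in Ts65Dn, and 21 could not be told from it. Without Ts65Dn replicate 3 these were 13 below and 8 above, and without the libraries labelled Ts65Dn;Brwd1+/- 14 below and 7 above. In Ts65Dn;Brwd1+/-, 7 were below, 5 above and 30 could not be told from it, and the count above was 3 without euploid replicate 2 or 3 or any of the 3 Ts65Dn;Brwd1+/- libraries. Over all genes tested, which are mostly present in 2 copies in every group, 65.7% were below and 6.72% above in Ts65Dn, and 73.2% below and 3.59% above in Ts65Dn;Brwd1+/-. Because so many genes are below 1.5, adjustment over all of them hardly raises the p-values (in Ts65Dn an unadjusted p of 0.0361 still passed). At an unadjusted p under 0.001 the genes above 1.5 numbered 3 and 1, and those below 9 and 3.

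**Figure D2:**
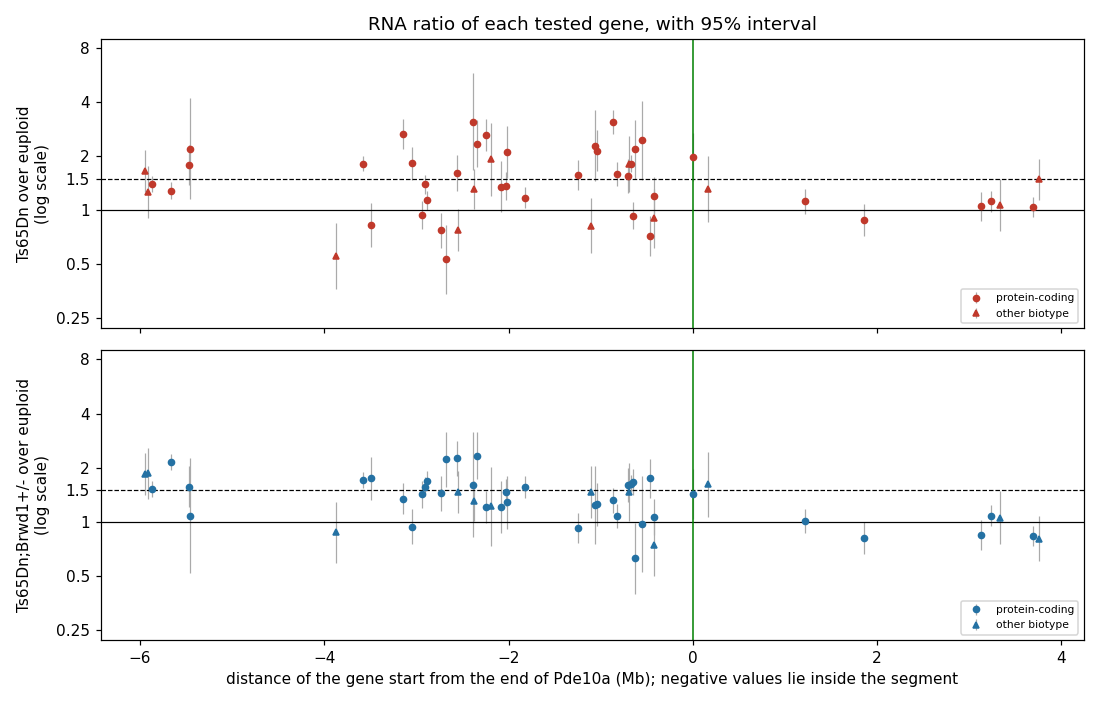
RNA ratio to euploid on a log axis for each tested gene, with its 95% interval as a bar, against the distance of the gene's start from the end of Pde10a in Mb; circles are protein-coding genes, triangles other biotypes, the green line the end of Pde10a, the dashed line 1.5 and the solid line 1. The genes to the left of the green line spread from 0.534 to 3.11 in the Ts65Dn panel and from 0.628 to 2.34 in the Ts65Dn;Brwd1+/- panel.

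Scaf8 (chr17:3114972-3198859), which binds the tail of RNA polymerase II and restrains premature ends of transcripts, was at 76.5, 76.1 and 83.0 CPM in euploid libraries, 106, 111 and 112 in Ts65Dn libraries and 117, 117 and 123 in Ts65Dn;Brwd1+/- libraries. Its ratio was 1.40 (1.26 to 1.55) in Ts65Dn and 1.51 (1.37 to 1.68) in Ts65Dn;Brwd1+/-, and no trisomic library overlapped the euploid range. Scaf4, its paralogue on the chromosome 16 segment, is thus also triplicated, and had ratios of 1.48 and 1.599. The values of Scaf4 were 59.9, 80.01 and 72.3 CPM in euploid libraries, 99.2, 109 and 105 in Ts65Dn libraries and 118, 107 and 115 in Ts65Dn;Brwd1+/- libraries. Both paralogues were therefore higher in each trisomic group (adjusted p at most 0.00175).

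Gtf2h5, the smallest subunit of the general transcription and repair factor TFIIH, rose from 52.2 ± 3.31 CPM (SD, n = 3) to 72.7 ± 5.55 in Ts65Dn and 81.9 ± 3.81 in Ts65Dn;Brwd1+/-, ratios of 1.39 (1.23 to 1.58) and 1.57 (1.39 to 1.78). Of the 9 other TFIIH genes, all present in 2 copies, 3 rose and 1 fell in Ts65Dn (25.6% and 21.1% of all genes) and 2 rose and 0 fell in Ts65Dn;Brwd1+/- (14% and 15.2%). Their median ratios were 1.08 and 0.992. The partners that rose in Ts65Dn were Mnat1 (1.49), Cdk7 (1.19) and Gtf2h3 (1.16), and Ccnh was lower (0.863).

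Tfb1m, which methylates the RNA of the small mitochondrial ribosomal subunit, had ratios of 1.78 (1.38 to 2.31) and 1.57 (1.21 to 2.03), and the Ts65Dn;Brwd1+/- call was lost without euploid replicate 2 (adjusted p = 0.0568) or Ts65Dn;Brwd1+/- replicate 2 (0.0621). Of Tfam, Tfb2m and Polrmt, the core of mitochondrial transcription, 0 of 3 were called in either group, with ratios from 0.846 to 1.09. Mpc1, a subunit of the mitochondrial pyruvate carrier, had ratios of 1.56 (1.25 to 1.94) and 1.59 (1.28 to 1.98), whereas its partner Mpc2 was at 1.05 and 1.02 and was not called. Part of Mpc1 (23.1% of its exon bases) overlaps the non-coding 4930506C21Rik, and reads from the 2 cannot be told apart without strand.

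Tmem242, an inner-membrane protein that helps to assemble the mitochondrial ATP synthase, was one of the genes above 1.5 in both groups. It was at 28.1, 28.8 and 27.6 CPM in euploid libraries, 52.9, 51.1 and 49.4 in Ts65Dn libraries and 49.3, 46.2 and 48.5 in Ts65Dn;Brwd1+/- libraries. All 6 trisomic libraries lay above 1.5 times the euploid mean, the ratios being 1.82 (1.65 to 2.00) and 1.70 (1.54 to 1.88, adjusted p against 1.5 of 0.0027 and 0.0226). Sft2d1, a membrane protein of vesicle traffic, was above 1.5 in Ts65Dn (1.81, 1.63 to 2.02) and could not be told from it in Ts65Dn;Brwd1+/- (1.63, 1.46 to 1.82).

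**Figure D3:**
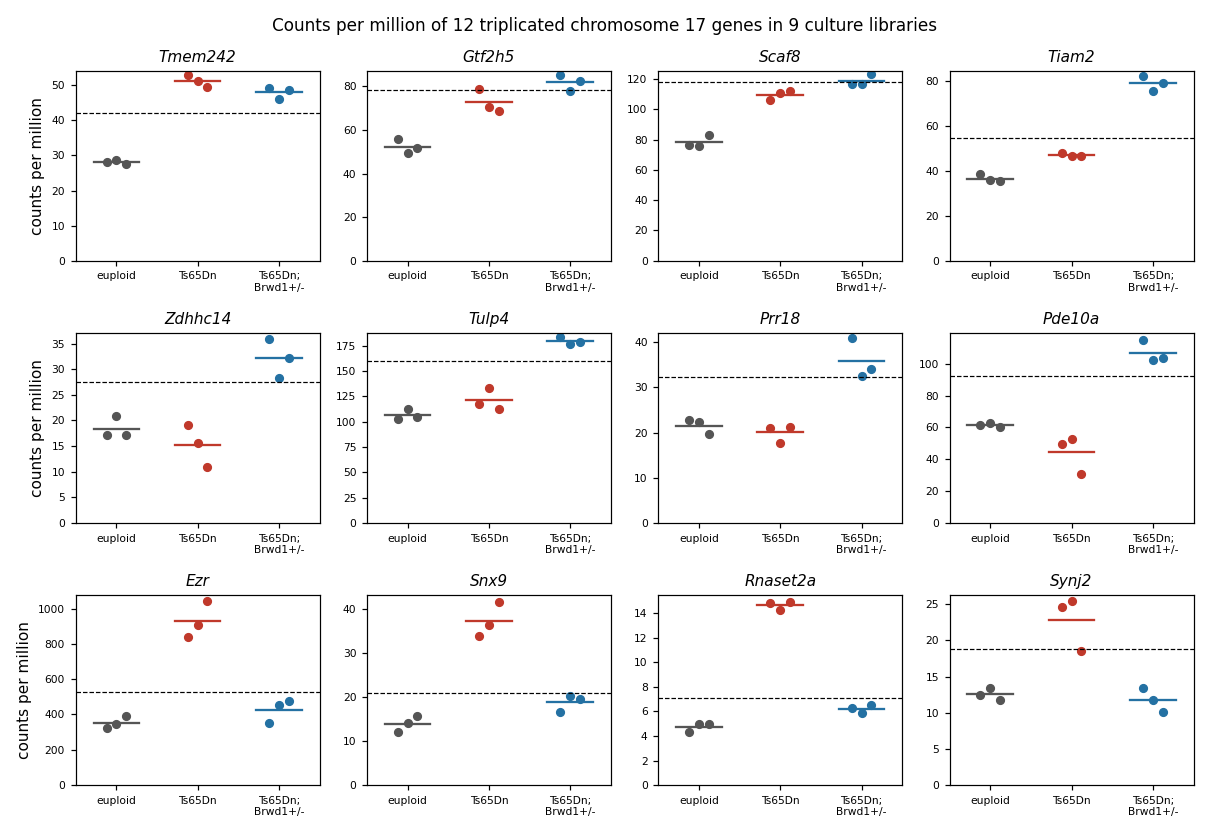
CPM (linear axis from 0) of 12 protein-coding genes of the segment in each of the 9 culture libraries; points are libraries, short bars group means and dashed lines 1.5 times the euploid mean. In the middle row all Ts65Dn;Brwd1+/- points lie above the dashed line and all Ts65Dn points below it, and in the bottom row all Ts65Dn;Brwd1+/- points lie below it.

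Other genes had a ratio that differed between the 2 trisomic groups. Against Ts65Dn, 13 of the 42 genes were higher and 11 lower in Ts65Dn;Brwd1+/-, where 27.6% and 30.5% of all genes were called, so the share of the segment's genes called was near that of the rest of the genome. Their median ratio was 0.967, from 0.595 to 1.48 in the middle of the distribution. Copy number of the segment is the same in both groups by genotype, but the groups also differ in sex-linked RNA, which cannot be told apart from genotype here. Of the 11 that were lower, all had been higher in Ts65Dn than in euploid, but both contrasts use the same Ts65Dn libraries. The 11 include T, which passed the filter on low counts through the Ts65Dn libraries alone and so had to be lower.

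Pde10a (chr17:8525372-8986648), the phosphodiesterase of cAMP and cGMP that is abundant in striatal projection neurons, had the highest ratio of Ts65Dn;Brwd1+/- to Ts65Dn among the tested genes outside the near-identical families. It was at 61.7, 62.5 and 60.05 CPM in euploid libraries, 49.4, 52.9 and 30.5 in Ts65Dn libraries and 115, 102 and 103 in Ts65Dn;Brwd1+/- libraries. The 3 Ts65Dn libraries lay below and the 3 Ts65Dn;Brwd1+/- libraries above all euploid ones, with Ts65Dn replicate 3 the lowest of all 9. Its ratio was 0.721 (0.558 to 0.931) in Ts65Dn (log2 change −0.47 ± 0.17 SE, adjusted p = 0.0389), 1.74 (1.35 to 2.24) in Ts65Dn;Brwd1+/- (adjusted p = 0.00501) and 2.42 (1.87 to 3.12) between them. The decrease did not pass without any 1 of the 3 euploid libraries (adjusted p up to 0.093) or with the Ts65Dn;Brwd1+/- libraries left out of the fit (0.0619), and without Ts65Dn replicate 3 its log2 change was −0.26 (adjusted p = 0.0247). With those libraries left out and the replicate number as a block it passed (0.0246).

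The summed level of 12 markers of striatal projection neurons was set beside Pde10a. It lay between 125 and 136 CPM in euploid libraries, 90.7 and 134 in Ts65Dn libraries and 328 and 337 in Ts65Dn;Brwd1+/- libraries, and 12 GABAergic markers summed to 679 to 738, 185 to 279 and 1111 to 1233. Of the 12 striatal markers 2 were higher and 3 lower in Ts65Dn than in euploid (25.6% and 21.1% of all genes), and 10 were higher and 0 lower in Ts65Dn;Brwd1+/- (14% and 15.2%). Of the 12 GABAergic markers 0 were higher and 12 lower in Ts65Dn, and 8 were higher and 0 lower in Ts65Dn;Brwd1+/-. Of the 12 markers in each list used here, 0 lacked a count in all libraries. Their part in the Pde10a values was not tested.

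Other phosphodiesterases of cyclic nucleotides are present in 2 copies. Of 15 tested, 3 rose and 6 fell in Ts65Dn, where 25.6% and 21.1% of all genes were called. In Ts65Dn;Brwd1+/- 5 rose and 2 fell, where 14% and 15.2% of all genes were called. Pde1b, an enzyme of striatum, had ratios of 1.03 (adjusted p = 0.618) and 1.08 (adjusted p = 0.309). Pde7b, also of striatum, had ratios of 1.58 (adjusted p = 0.0702) and 4.81 (adjusted p = 1.20e-04). Pde1c had ratios of 0.737 (adjusted p = 0.0508) and 3.12 (adjusted p = 2.67e-05), and Pde5a rose to 3.28 in Ts65Dn. Pde4a fell to 0.430 and Pde2a to 0.442 in Ts65Dn.

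Zdhhc14, a palmitoyltransferase of the Golgi, was at 17.1, 20.9 and 17.2 CPM in euploid libraries, 19.0, 15.6 and 10.9 in Ts65Dn libraries and 35.9, 28.4 and 32.1 in Ts65Dn;Brwd1+/- libraries. The Ts65Dn values overlapped the euploid ones and reached their lowest in replicate 3, whereas all 3 Ts65Dn;Brwd1+/- libraries were higher than both. The ratios were 0.825 (0.624 to 1.09), below 1.5, and 1.75 (1.33 to 2.30). Without Ts65Dn replicate 1 Zdhhc14 was called lower than euploid in Ts65Dn (log2 change −0.478, adjusted p = 0.0436). Prr18, a proline-rich protein, followed with 22.7, 22.3 and 19.6 CPM in euploid libraries, 21.1, 17.7 and 21.3 in Ts65Dn libraries and 40.9, 32.6 and 34.2 in Ts65Dn;Brwd1+/- libraries. Its ratios were 0.932 (0.784 to 1.11), again below 1.5, and 1.67 (1.40 to 1.98), with no overlap between the trisomic groups. The 12 markers of the oligodendrocyte lineage summed to 362 to 415, 613 to 714 and 958 to 1160 CPM in the 3 groups. Of 10 tested, 7 were higher and 2 lower in Ts65Dn;Brwd1+/- than in euploid (14% and 15.2% of all genes), and their part in the Prr18 values was not tested.

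Tiam2, an exchange factor that activates the GTPase Rac in growing neurites, was below 1.5 in Ts65Dn and above it in Ts65Dn;Brwd1+/-. It was at 38.6, 35.8 and 35.4 CPM in euploid libraries, 48.3, 46.7 and 46.5 in Ts65Dn libraries and 82.4, 75.5 and 79.4 in Ts65Dn;Brwd1+/- libraries. The 3 groups did not overlap in any pair, and the ratios were 1.29 (1.16 to 1.43) and 2.16 (1.95 to 2.40, adjusted p against 1.5 of 0.013 and 6.15e-05). Tiam1, the paralogue on the chromosome 16 segment, was at 59.7, 57.9 and 54.7 CPM in euploid libraries, 49.1, 44.7 and 28.03 in Ts65Dn libraries and 94.4, 83.2 and 86.9 in Ts65Dn;Brwd1+/- libraries. It was lower than euploid in Ts65Dn (ratio 0.707, adjusted p = 0.0328) and higher in Ts65Dn;Brwd1+/- (1.54, adjusted p = 0.0185), so that of 2 paralogues with 3 copies each only Tiam2 was higher in Ts65Dn.

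Tulp4, a tubby-related protein, and Rps6ka2, a ribosomal S6 kinase activated by ERK, were both below 1.5 in Ts65Dn and near it in Ts65Dn;Brwd1+/-. Tulp4 rose from 107 ± 5.22 CPM (SD, n = 3) to 179.9 ± 3.60 in Ts65Dn;Brwd1+/- (ratio 1.69, 1.49 to 1.91) and was at 121 ± 10.6 in Ts65Dn (ratio 1.14, 1.01 to 1.28, adjusted p = 0.0796). Rps6ka2 had ratios of 1.18 (1.03 to 1.35, adjusted p = 0.0504) and 1.56 (1.36 to 1.79, adjusted p = 5.34e-04), and without Ts65Dn replicate 3 both genes were called higher in Ts65Dn (adjusted p of 0.0431 and 0.0036). Of the 5 other ribosomal S6 kinases, among them the X-linked Rps6ka3 and Rps6ka6, 2 rose and 2 fell in Ts65Dn (25.6% and 21.1% of all genes), and 1 rose and 1 fell in Ts65Dn;Brwd1+/- (14% and 15.2%).

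Serac1, which remodels phosphatidylglycerol where mitochondria meet the endoplasmic reticulum, shares its start region with Gtf2h5 but not its ratio in Ts65Dn. It was at 24.03, 23.6 and 23.99 CPM in euploid libraries, 24.7, 24.4 and 18.1 in Ts65Dn libraries and 35.9, 34.5 and 31.3 in Ts65Dn;Brwd1+/- libraries. In Ts65Dn it stayed at the euploid level in replicates 1 and 2 and was lower in replicate 3, a ratio of 0.940 (0.787 to 1.12) that was below 1.5, and in Ts65Dn;Brwd1+/- it reached 1.42 (1.19 to 1.69). Where Gtf2h5 was called higher in Ts65Dn (ratio 1.39), its head-to-head neighbour was not (adjusted p = 0.557), and 6.49% of the exon bases of Serac1 overlap Synj2. In Ts65Dn;Brwd1+/- both were called higher, with overlapping intervals (Gtf2h5 at 1.57, 1.39 to 1.78).

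Ezr (chr17:6738041-6782784) codes for ezrin, which ties the actin skeleton to the plasma membrane, and was at 325, 345 and 389.5 CPM in euploid libraries, 837, 906 and 1041 in Ts65Dn libraries and 351, 456 and 477 in Ts65Dn;Brwd1+/- libraries. Every Ts65Dn library exceeded 1.5 times the euploid mean, and the Ts65Dn;Brwd1+/- libraries overlapped the euploid ones. The ratios were 2.63 (2.13 to 3.24, log2 change 1.39 ± 0.14 SE, adjusted p = 5.06e-05) and 1.21 (0.986 to 1.49, adjusted p = 0.152), with 0.461 (0.375 to 0.567) between the trisomic groups.

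Of the relatives of ezrin, Msn (moesin), which is X-linked, rose to a ratio of 1.62 in Ts65Dn and fell to 0.631 in Ts65Dn;Brwd1+/-, the libraries with high Xist. Rdx (radixin) had ratios of 1.09 and 0.946 and Nf2 (merlin) of 0.970 and 1.11, none of them called. Markers of radial glia and astrocytes, 12 in number, summed to 6046 to 6829 CPM in euploid libraries, 9127 to 10762 in Ts65Dn libraries and 5270 to 6002 in Ts65Dn;Brwd1+/- libraries. Of the 12, 7 were higher and 3 lower in Ts65Dn than in euploid (25.6% and 21.1% of all genes). In Ts65Dn;Brwd1+/- 4 were higher and 2 lower (14% and 15.2%). The part of these cells in the Ezr values was not tested.

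Snx9, a sorting nexin that shapes membrane during endocytosis, was at 11.9, 14.1 and 15.8 CPM in euploid libraries, 33.8, 36.3 and 41.6 in Ts65Dn libraries and 16.5, 20.3 and 19.6 in Ts65Dn;Brwd1+/- libraries. It was above 1.5 in Ts65Dn, with no overlap between groups, at a ratio of 2.67 (2.20 to 3.23). In Ts65Dn;Brwd1+/- the ratio was 1.35 (1.11 to 1.64), a call lost without any of 4 libraries (adjusted p up to 0.105). The neighbouring Synj2, a phosphoinositide phosphatase of vesicle recycling, was at 12.4, 13.5 and 11.8 CPM in euploid libraries, 24.7, 25.5 and 18.5 in Ts65Dn libraries and 13.5, 11.8 and 10.2 in Ts65Dn;Brwd1+/- libraries. Its ratio was 1.82 (1.47 to 2.27) in Ts65Dn and 0.939 (0.751 to 1.17) in Ts65Dn;Brwd1+/-, where it was below 1.5 and overlapped euploid in spite of 3 copies.

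Synj1, the paralogue of Synj2 on the chromosome 16 segment, was at 236, 236 and 206 CPM in euploid libraries, 204, 191 and 128 in Ts65Dn libraries and 343, 310.2 and 289.5 in Ts65Dn;Brwd1+/- libraries. Its ratios were 0.771 in Ts65Dn (adjusted p = 0.0732) and 1.39 in Ts65Dn;Brwd1+/- (adjusted p = 0.0449). The 2 synaptojanins therefore stood in opposite order, Synj2 higher in Ts65Dn than in Ts65Dn;Brwd1+/- and Synj1 higher in Ts65Dn;Brwd1+/- than in Ts65Dn (ratio 1.80, adjusted p = 0.00113).

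Fndc1, a fibronectin-domain protein, and Fgfr1op, a centrosome protein, were higher in Ts65Dn and not called in Ts65Dn;Brwd1+/-. Fndc1 was at 60.2, 73.2 and 61.7 CPM in euploid libraries, 82.2, 118 and 106 in Ts65Dn libraries and 61.6, 60.9 and 58.4 in Ts65Dn;Brwd1+/- libraries, and the Ts65Dn values did not overlap the other 2 groups. Its ratios were 1.57 (1.29 to 1.90) and 0.927 (0.763 to 1.13), and those of Fgfr1op were 1.596 (1.37 to 1.86) and 1.08 (0.924 to 1.26). Both were below 1.5 in Ts65Dn;Brwd1+/-. Meningeal and fibroblast markers summed to 149 to 204 CPM in euploid libraries, 292 to 401 in Ts65Dn libraries and 212 to 244 in Ts65Dn;Brwd1+/- libraries, with 6 of 11 tested higher and 4 lower in Ts65Dn than in euploid. For Ts65Dn;Brwd1+/- these were 2 higher and 7 lower. Over all genes 25.6% were higher and 21.1% lower in Ts65Dn, and 14% and 15.2% in Ts65Dn;Brwd1+/-. Their part in the Fndc1 values was not tested.

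T (brachyury), the transcription factor of mesoderm and notochord, and its neighbour T2 were near the lower limit of the counts. T was at 0.194, 0.307 and 0.319 CPM in euploid libraries, 0.694, 0.543 and 0.794 in Ts65Dn libraries and 0.178, 0.223 and 0.373 in Ts65Dn;Brwd1+/- libraries, and T2 at 1.26, 1.40 and 2.05 CPM in euploid libraries, 3.96, 2.37 and 3.93 in Ts65Dn libraries and 0.847, 1.17 and 0.971 in Ts65Dn;Brwd1+/- libraries. Both were higher in all 3 Ts65Dn libraries than in all others. T passed the filter on low counts through the Ts65Dn libraries alone, so that it had to differ, and its fitted ratio of 2.45 is given as a description. The ratio of T2 was 2.18 (1.49 to 3.20). In Ts65Dn;Brwd1+/- T2 was below 1.5 at 0.628 (0.398 to 0.989). At these levels a library holds few reads (at most 18 for T), and 18.03% of the exon bases of T2 overlap non-coding genes.

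**Figure D4:**
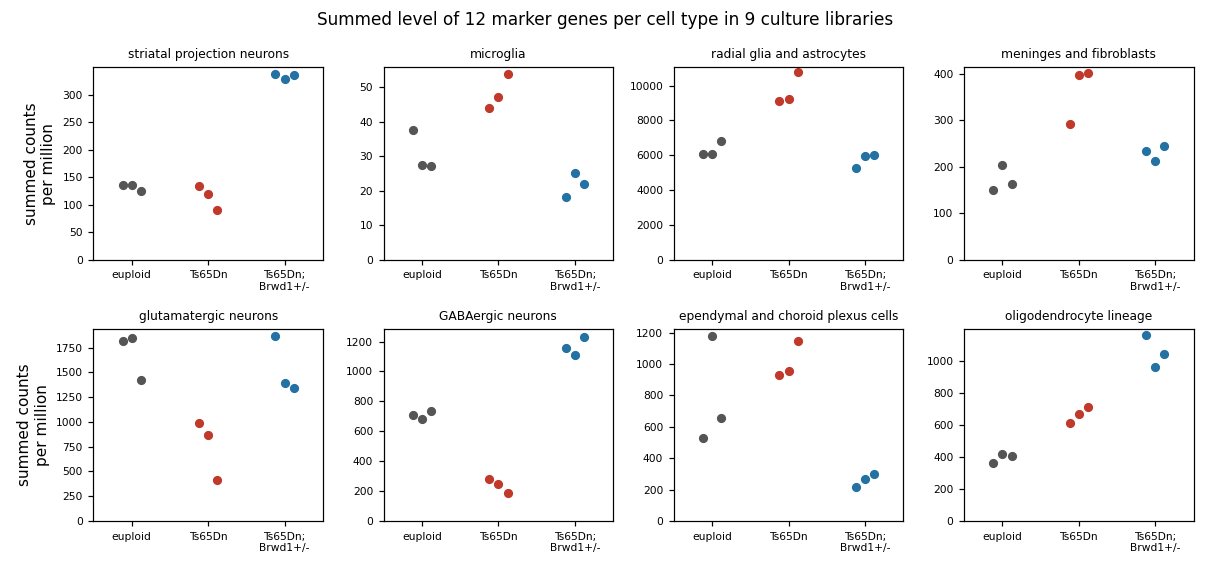
Summed CPM (linear axis from 0) of 12 marker genes for each of 8 cell types in the 9 culture libraries, one point per library. GABAergic sums are lowest in Ts65Dn (185 to 279) and highest in Ts65Dn;Brwd1+/- (1111 to 1233), and radial glial and astrocytic sums are highest in Ts65Dn (9127 to 10762).

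Near-identical families hold 13 of the 42 genes tested, and the values of single copies are uncertain. The 4 Dynlt1 genes, light chains of cytoplasmic dynein, have 339 coding bases each, and Dynlt1a, Dynlt1c and Dynlt1f are identical over all of them while Dynlt1b differs at 1 base (C21A, Dynlt1a base first, counted from the A of the start codon). The first 60 coding bases by the GENCODE annotation are shown because they hold that only difference, which is in capitals.
Dynlt1a: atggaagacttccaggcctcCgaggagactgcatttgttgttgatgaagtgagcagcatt
Dynlt1b: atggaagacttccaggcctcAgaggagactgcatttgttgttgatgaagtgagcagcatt

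Reads of these copies can thus be told apart only by the bases outside the coding part or by that position. Dynlt1a was at 1.41, 1.27 and 0.911 CPM in euploid libraries, 0.898, 0.494 and 0.485 in Ts65Dn libraries and 2.94, 2.51 and 2.54 in Ts65Dn;Brwd1+/- libraries, and Dynlt1f at 1.505, 1.54 and 2.59 CPM in euploid libraries, 4.45, 4.30 and 4.50 in Ts65Dn libraries and 4.41, 4.68 and 4.14 in Ts65Dn;Brwd1+/- libraries. Dynlt1a was lower than euploid in Ts65Dn (ratio 0.534, 0.344 to 0.828, a call lost without any of 4 libraries) and higher in Ts65Dn;Brwd1+/- (2.22, 1.56 to 3.17), whereas Dynlt1f was above 1.5 in both (2.35 and 2.34). Dynlt1c was above 1.5 in Ts65Dn (3.11, 1.67 to 5.80), with 6.33, 2.72 and 2.74 CPM in the 3 libraries, and Dynlt1b was above it in Ts65Dn;Brwd1+/- (2.26, 1.81 to 2.81).

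Summed over the 4 copies, Dynlt1 came to 8.35, 8.42 and 9.01 CPM in euploid libraries, 19.4, 13.98 and 14.03 in Ts65Dn libraries and 18.6, 18.4 and 19.1 in Ts65Dn;Brwd1+/- libraries. No test was run on these sums. The ratio of the means was 1.84 and 2.18, with no overlap with euploid. Of 9 other genes of cytoplasmic dynein, outside the triplicated segments, 1 rose (the X-linked Dynlt3, 1.32) and 2 fell (Dync1i1, 0.431, and Dync1li1, 0.694) in Ts65Dn, where 25.6% and 21.1% of all genes were called. Against euploid, 1 rose (Dynlrb1, 1.26) and 1 fell (Dynlt3, 0.781) in Ts65Dn;Brwd1+/-, where 14% and 15.2% were called.

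The Tmem181 family of membrane proteins had other values. Tmem181a was at 40.0, 33.9 and 30.2 CPM in euploid libraries, 31.4, 27.6 and 21.7 in Ts65Dn libraries and 56.1, 47.3 and 46.5 in Ts65Dn;Brwd1+/- libraries, and its pseudogene Tmem181b-ps at 23.3, 28.8 and 26.5 CPM in euploid libraries, 25.8, 20.8 and 14.7 in Ts65Dn libraries and 42.7, 35.9 and 36.9 in Ts65Dn;Brwd1+/- libraries. The 3 copies summed to 71.5, 71.4 and 65.0 CPM in euploid libraries, 69.2, 60.6 and 45.1 in Ts65Dn libraries and 110.2, 96.0 and 92.2 in Ts65Dn;Brwd1+/- libraries. The Ts65Dn sums reached from within the euploid range to below it, and the Ts65Dn;Brwd1+/- sums lay above it, the ratios of the means being 0.841 and 1.44. Tmem181a was not called in Ts65Dn (ratio 0.775, 0.618 to 0.972, adjusted p = 0.0627), but it was called lower (adjusted p = 0.00571) when the replicate number was a block, and its increase in Ts65Dn;Brwd1+/- (1.44) was lost without any of 5 libraries.

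Rnaset2a and Rnaset2b, copies of a lysosomal ribonuclease, were both higher in Ts65Dn. Rnaset2a was at 4.32, 4.96 and 4.96 CPM in euploid libraries, 14.9, 14.3 and 15.0 in Ts65Dn libraries and 6.29, 5.85 and 6.57 in Ts65Dn;Brwd1+/- libraries, and Rnaset2b at 3.79, 3.73 and 6.33 CPM in euploid libraries, 8.17, 10.8 and 10.5 in Ts65Dn libraries and 4.91, 5.96 and 6.83 in Ts65Dn;Brwd1+/- libraries. Rnaset2a had the largest ratio of the genes outside the Dynlt1 family in Ts65Dn, 3.09 (2.66 to 3.59), well above 1.5, and 1.32 (1.12 to 1.54) in Ts65Dn;Brwd1+/-. The latter call was lost without Ts65Dn;Brwd1+/- replicate 1 (adjusted p = 0.0538) or 3 (0.0792). Rnaset2b had 2.12 (1.52 to 2.96) and 1.28 (0.908 to 1.81). Rnaset2b could not be told from 1.5 in Ts65Dn (adjusted p = 0.0572) but was above it (0.0367) with the replicate number as a block. The 2 copies summed to 8.11, 8.68 and 11.3, 23.03, 25.1 and 25.5 and 11.2, 11.8 and 13.4 CPM in the 3 groups, ratios of 2.62 and 1.30.

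Rsph3a, of the radial spokes of motile cilia, and Tagap, a GTPase-activating protein of T cells, were likewise higher in Ts65Dn than in the other 2 groups. Rsph3a was at 4.22, 5.18 and 4.69 CPM in euploid libraries, 9.31, 8.25 and 12.8 in Ts65Dn libraries and 5.98, 6.403 and 5.34 in Ts65Dn;Brwd1+/- libraries, a ratio of 2.15 (1.65 to 2.79) that was above 1.5. Tagap was at 0.534, 0.526 and 1.00 CPM in euploid libraries, 1.71, 1.23 and 1.77 in Ts65Dn libraries and 0.713, 0.724 and 1.08 in Ts65Dn;Brwd1+/- libraries, a ratio of 2.29 (1.45 to 3.60). In Ts65Dn;Brwd1+/- their ratios were 1.25 and 1.24, neither called, and the decrease of Tagap from Ts65Dn was lost without any of 4 libraries. Their copies Rsph3b and Tagap1 had ratios of 1.36 and 1.37 in Ts65Dn and 1.21 and 1.45 in Ts65Dn;Brwd1+/-, and the Tagap1 call in Ts65Dn was lost without euploid replicate 3 (adjusted p = 0.0579). Ependymal and choroid plexus markers summed to 529 to 1176, 932 to 1148 and 219 to 301 CPM, and microglial markers to 27.1 to 37.8, 44.1 to 54.0 and 18.3 to 25.2 CPM in the 3 groups, and their part in these values was not tested. Of 11 ependymal markers tested 6 were higher and 1 lower in Ts65Dn and 1 higher and 10 lower in Ts65Dn;Brwd1+/-, and of 7 microglial ones 1 was higher and 2 lower in Ts65Dn and 0 higher and 6 lower in Ts65Dn;Brwd1+/-. The shares over all genes were 25.6% higher and 21.1% lower in Ts65Dn, and 14% and 15.2% in Ts65Dn;Brwd1+/-.

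Of the 9 tested genes that are not protein-coding, 3 were higher and 1 lower in Ts65Dn than in euploid (25.6% and 21.1% of all genes), and 3 were higher in Ts65Dn;Brwd1+/- (14% of all genes). The 3 with the highest mean CPM were Tmem181b-ps, Tmem181c-ps, with ratios of 1.31 and 1.31 and not called, and Pisd-ps2, with ratios of 1.26 (0.903 to 1.76) and 1.86 (1.35 to 2.56) and called in Ts65Dn;Brwd1+/-. Gm10232 (ratios of 1.66 and 1.85) was called in both groups and Gm2885 (1.93) and 4930506C21Rik (1.82) in Ts65Dn, and these 3 are named after their values were seen. The values of Gm10232 are uncertain, since 87.8% of its 50-base windows also occur in a transcript of another gene. The pseudogenes Gm15599 and Gm15425 were below 1.5 in both groups. Gm15599 was at 1.84, 1.49 and 1.09 CPM in euploid libraries, 0.694, 0.790 and 0.971 in Ts65Dn libraries and 0.936, 1.56 and 1.38 in Ts65Dn;Brwd1+/- libraries, and Gm15425 at 1.26, 0.790 and 1.41 CPM in euploid libraries, 1.06, 0.939 and 1.103 in Ts65Dn libraries and 0.713, 1.00 and 0.859 in Ts65Dn;Brwd1+/- libraries. The antisense gene E430024P14Rik, with 20.8% of its exon bases in Rsph3a or Tagap, was at 2.62, 2.63 and 2.19 CPM in euploid libraries, 2.20, 2.57 and 1.37 in Ts65Dn libraries and 4.28, 3.23 and 3.40 in Ts65Dn;Brwd1+/- libraries, higher in Ts65Dn;Brwd1+/- than in Ts65Dn (ratio 1.78, 1.27 to 2.501). With the replicate number as a block and the Ts65Dn;Brwd1+/- libraries left out of the fit, the Ts65Dn calls of Gm15599 (adjusted p = 0.0283), Gm2885 (0.0271) and the coding Cldn20 (0.0456) were lost, at 0.0560, 0.0873 and 0.0564. With the block over all 9 libraries they passed, at 0.0452, 0.0387 and 0.0485. Without the block, the Cldn20 call was lost on leaving out any 1 of 6 libraries (adjusted p up to 0.154).

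Among the tested genes that follow Pde10a and lie outside the interval by the rule, 9 were read for comparison. The nearest, 1700010I14Rik, starts 1685 bases past the end of Pde10a and was higher in Ts65Dn (ratio 1.98, 1.46 to 2.69, adjusted p = 0.003), with 1.43 (1.04 to 1.97) in Ts65Dn;Brwd1+/- (adjusted p = 0.0869). The second, 6530411M01Rik, 161071 bases away, had 1.31 (0.856 to 2.02) and 1.61 (1.06 to 2.45), neither called. Whether the extra segment reaches these genes was not tested. From Qk, an RNA-binding protein 1215953 bases away, the ratios were 1.12 and 1.01, and the others up to Airn (an imprinted non-coding RNA, higher in Ts65Dn with an adjusted p of 0.0203) lay between 0.887 and 1.48 in Ts65Dn and between 0.805 and 1.08 in Ts65Dn;Brwd1+/-.

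In adult hippocampal neurons the interval held more ATAC peaks in the trisomic lists than in the euploid one. It had 36 peaks in the euploid list, 124 for Ts65Dn and 156 for Ts65Dn;Brwd1+/-, 3.44 and 4.33 times the euploid number, where the whole lists grew 1.88 and 1.95 times (15521, 29195 and 30244 peaks). That is 0.232% (Wilson 95% interval, 0.168 to 0.321), 0.425% (0.356 to 0.506) and 0.516% (0.441 to 0.603) of the peaks of each list. Per Mb the interval held 6.45, 22.2 and 27.9 peaks, the chromosome 16 segment 8.64, 18.6 and 22.5, and the other autosomes 6.39, 11.9 and 12.3. The peaks covered 13488, 48540 and 58242 bases in all, with median widths of 291, 315.5 and 296.5 bases. An extra copy adds DNA as well as any open chromatin on it, so more copies and more accessibility per copy cannot be told apart here. Depth per library is unknown from these lists, and the intervals cover counting error only.

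**Figure D5:**
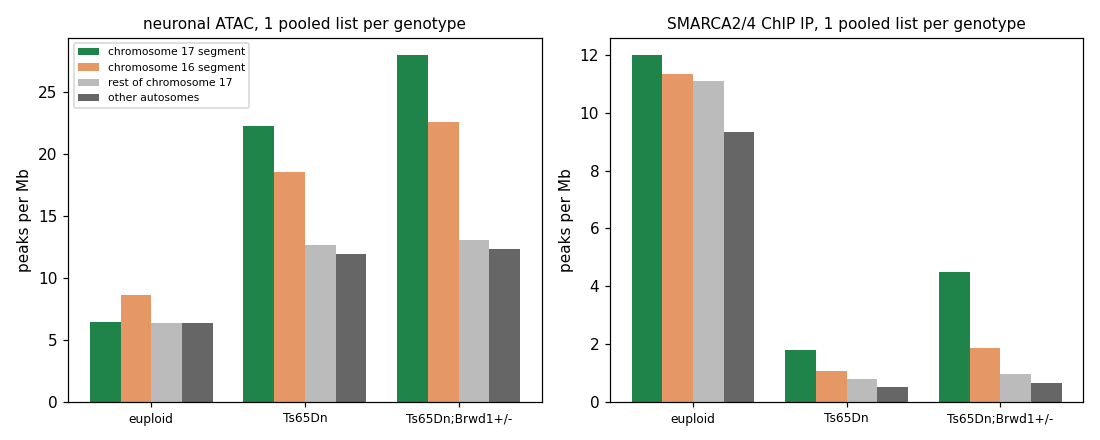
Peaks per Mb (linear axis from 0) in the chromosome 17 segment, the chromosome 16 segment, the rest of chromosome 17 and the other autosomes, for the pooled ATAC list (left) and the SMARCA2/4 ChIP list (right) of each genotype; lists have no replicates and bars carry no error. In the ATAC lists the chromosome 17 segment goes from 6.45 in euploid to 22.2 and 27.9 in the trisomic lists, and in the ChIP lists every bar of the trisomic genotypes is lower than that of euploid.

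Of the 36 euploid ATAC peaks of the interval, 35 overlapped a Ts65Dn peak and 35 a Ts65Dn;Brwd1+/- peak by at least 1 base. Where at least 50% of each peak had to overlap, 28 of 36 (77.8%) were found in either trisomic list. Conversely, 28.2% of the Ts65Dn peaks (21.1 to 36.7) and 22.4% of the Ts65Dn;Brwd1+/- peaks (16.6 to 29.6) were in the euploid list, against 49.9% and 47.9% over the whole lists. At the 35 shared peaks the fold enrichment over local background, which is set within each list, had a median ratio to euploid of 1.17 in Ts65Dn (33 of 35 higher) and 0.939 in Ts65Dn;Brwd1+/- (12 of 35 higher). Over the shared peaks of the rest of the genome the medians were 1.23 and 1.05, with 92.7% and 62.9% higher.

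By gene, 15, 24 and 29 of the 75 genes had an ATAC peak within 1 kb of their annotated start in the lists of the 3 genotypes, taken in the order above (20%, 32% and 38.7%). Over the 47291 genes of the autosomes other than 16 and 17, the shares were 20.5%, 25.2% and 24.9%. Among protein-coding genes they were 29.3%, 48.8% and 58.5% of the 41 members and 41.5%, 49.6% and 48.9% of those on the other autosomes, and no test was made of these shares. Those with one in all 3 ATAC lists included Scaf8, Tfb1m, Tmem242, Gtf2h5 with Serac1, Sft2d1, Mpc1, Tulp4, Rps6ka2, Zdhhc14 and Pde10a, several of whose start regions are printed above. The peak over the shared start of Gtf2h5 and Serac1 had fold enrichments of 5.06, 5.58 and 4.14 in the 3 lists, and that of Tfb1m 7.47, 7.89 and 6.26. Among the ATAC lists, Snx9 and Rnaset2a had a start peak only in the trisomic ones (fold enrichments of 3.57 and 2.69 for Snx9 and 3.85 and 3.64 for Rnaset2a), and Ezr only in the Ts65Dn;Brwd1+/- list (3.12). Synj2 had no peak at its annotated start, but 1 in each list lay over the RefSeq start further inside the gene.

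Pde10a had a start peak in all 6 lists, though that of the Ts65Dn ChIP list (fold enrichment 3.32) had a q-value of 0.05 or more. Along the gene body, 8, 16 and 19 ATAC peaks were called in the 3 genotypes in the same order, the most of any gene of the interval. Its printed RefSeq start region, inside the annotated gene, was touched by an ATAC peak in each list. Tiam2 had 0, 6 and 6 body peaks, and Zdhhc14 2, 6 and 5. These are hippocampal nuclei, so the values cannot be set against the culture RNA gene by gene.

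SMARCA2/4 peaks of the interval numbered 67 in the euploid list, 10 for Ts65Dn and 25 for Ts65Dn;Brwd1+/-, out of 22667, 1290 and 1873 peaks. As shares of the lists these were 0.296% (0.233 to 0.375), 0.775% (0.422 to 1.42) and 1.33% (0.906 to 1.96). The chromosome 16 segment held 0.666%, 1.09% and 1.33% of the same lists, so a rising share was not particular to this interval. The lists differ too much in size for their peaks to be compared one by one, and they hold peaks with q-values of up to 0.153, 1 and 1. Start peaks were found for 13, 3 and 8 of the 75 genes (17.3%, 4% and 10.7%), against 12.9%, 0.753% and 1.03% of the genes of the other autosomes. Scaf8, Pisd-ps2 and Pde10a had one in all 3 lists, and Gtf2h5 with Serac1, Rps6ka2, Snx9, Fndc1 and Rnaset2a had one in the euploid list alone. In the Ts65Dn list the start peaks of Pisd-ps2 and Pde10a (fold enrichments of 3.87 and 3.32) were not among those with a q-value under 0.05. Nor was that of Scaf8 (3.42) in the Ts65Dn;Brwd1+/- list. With peaks at a q-value under 0.05, 60, 3 and 16 peaks remained in the interval.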

How the data were processed

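RNA of 9 cultures and pooled ATAC and ChIP peak lists of 3 genotypes were used. The authors aligned reads to mm10 with HISAT2 and deposited raw counts per gene (featureCounts is named in the labels, although the last lines of the files have the form that another counter writes), with no strand setting given in the sources used here, and 37.4 to 40.0% of reads in lines that name no gene, which were left out. The deposited peak lists hold, for each MACS peak, the fold enrichment (a ratio over input or local background) and the q-value, with the replicates of a genotype in 1 list in a way not given in the sources used here. By the study's methods the peaks were filtered on FDR, but the ChIP lists hold q-values of up to 1.

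Counts were tested with the quasi-likelihood test of edgeR 4.0.16 (R 4.3.3) with TMM scaling and genotype as the only term over all 9 libraries, after filterByExpr, with Benjamini-Hochberg adjustment over 17173 genes and a threshold of 0.05. The test against a ratio of 1.5 used an offset. SE and 95% intervals come from the same fit. The scripts were tested on simulated data. Tested coding members could be named with their ratio, with library values where a member was past 1.5 in both trisomic groups or changed over 1.5-fold between them, for Pde10a and for 3 members with a paralogue in the chromosome 16 segment, and 3 non-coding members were named by mean CPM. A gene had a start peak if a peak lay within 1 kb of its annotated start, and peaks were shared if they overlapped by 1 base. The members and the lists were chosen with earlier results of these data known. 1 gene of the interval and 1 gene beyond it are not reported here, and the segment without the former is 5.58 Mb. Deviations of libraries with the same replicate number correlated between euploid and Ts65Dn (r from 0.129 to 0.263, over 0.1 in each pair), which pairs them by the rule used, but not between the other groups (from −0.162 to 0.279). Alternatives were DESeq2 1.42.0, other scaling and filters, the block, each library left out, and other limits on peaks.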

Additional observations from a re-analysis of the deposited data

How the results depend on the processing

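The counts of genes called were recomputed with DESeq2, with other scaling and filters, with single libraries left out, and, as alternatives chosen after seeing the data, without the Ts65Dn;Brwd1+/- libraries, with a stricter threshold against 1.5, outside the near-identical families and with RefSeq start windows. Over the counts and medians of the genes and peaks, 210 alternative values kept their direction and stayed within their limits, 40 moved beyond them and 1 changed sign. Without any low-count filter, 5 genes were lower in Ts65Dn than in euploid and 3 were above 1.5 in Ts65Dn;Brwd1+/-. With at least 10 counts in every library, the median log2 change of the members was 0.44 in Ts65Dn against euploid, and the median between the trisomic groups turned from −0.05 to 0.049. Outside the near-identical families 7 genes were lower in Ts65Dn;Brwd1+/- than in Ts65Dn, since fewer genes were counted. With the Ts65Dn;Brwd1+/- libraries left out, 25 genes were higher and 2 lower in Ts65Dn, with a median log2 change of 0.61. At an unadjusted p under 0.001, 3 genes were above 1.5 in Ts65Dn, and 3 were below and 1 above in Ts65Dn;Brwd1+/-. The cause of the other changes was not tested.

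Pairing was tried by the replicate number as a block. Over the 6 euploid and Ts65Dn libraries it gave 24 higher and 3 lower genes, 13 below and 9 above 1.5, and a median log2 change of 0.61. Over all 9 libraries it also put Synj2 (adjusted p = 0.0324) and Tagap (0.0414) above 1.5 in Ts65Dn, and gave Tmem181c-ps an adjusted p of 0.0304 there and Ezr one of 0.0323 in Ts65Dn;Brwd1+/- against euploid. Apart from these and the genes named in the report, it changed no call of a member in Ts65Dn against euploid.

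With single libraries left out, Ts65Dn against euploid gave 24 to 28 genes higher and 0 to 5 lower (0 without euploid replicate 1 or 2, 1 without Ts65Dn replicate 2, 5 without Ts65Dn replicate 1), medians of 0.54 to 0.65, 12 to 14 below 1.5 and 6 to 10 above. Ts65Dn;Brwd1+/- against euploid gave 18 to 25 higher, 0 lower, medians of 0.45 to 0.55, 6 to 8 below 1.5 and 3 to 6 above (3 without euploid replicate 2 or 3 or any Ts65Dn;Brwd1+/- library). Between the trisomic groups 11 to 14 were higher and 10 to 13 lower, with medians of −0.10 to −0.0029. The sign of some log2 changes, none of them called, depended on the library left out: Cldn20 (−0.31 to 0.49), T (−0.49 to 0.15) and Gm17087 (−0.067 to 0.19) in Ts65Dn;Brwd1+/- against euploid, Serac1 in Ts65Dn against euploid (−0.17 to 0.044, positive without Ts65Dn replicate 3), and Mpc1 (−0.049 to 0.13) and Dynlt1f (−0.038 to 0.042) between the trisomic groups. Dynlt1f was also at 0.0067 with DESeq2, 0.0066 with RLE factors, 0.023 with no filter and 0.046 with at least 10 counts.

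The ChIP peaks depended on the q-value and on the overlap rule. Where at least 50% of each peak had to overlap, the share of euploid peaks found in the Ts65Dn;Brwd1+/- list went from 13.4% to 1.49%, and that of Ts65Dn;Brwd1+/- peaks found in the euploid list from 40% to 4%. In the euploid list 19 peaks of the interval and 5 genes with a start peak remained under 0.001. In the Ts65Dn list 3 peaks and 1 gene remained under 0.05, and 2 peaks and 0 genes under 0.001. In the Ts65Dn;Brwd1+/- list 16 peaks remained under 0.05, and 4 peaks and 2 genes under 0.001. Over RefSeq start windows, which cover fewer genes, 7, 0 and 3 genes had a ChIP peak. Counts were low for T and Tagap among others, and 33 members were not tested, 15 of them with no count in any library.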
